A study of Mus musculus with 30 samples.

Results

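The 34 genes described here encode proteins of the ciliary transition zone, of the distal centriole to which it is attached and of the ciliary membrane, and most of them are known ciliopathy genes. They were taken from a fixed list of symbols and matched by gene identifier to 34 of the 55401 genes in 4 tables of nuclear RNA-seq counts from mouse embryonic stem cells (mESCs). Of these genes, 13 belong to the MKS module of the transition zone, 5 to the NPHP module or to hub proteins of the zone, 3 to the inversin compartment, 7 to the distal centriole and its appendages, and 6 to the ciliary membrane and its signalling. The list is one of gene names and set no threshold on the measurements, but it was drawn up with earlier results of these data known.

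The primary cilium is an antenna of microtubules and membrane that grows from the mother centriole of most vertebrate cells and receives Hedgehog and other signals. At its base the transition zone links the microtubule doublets to the membrane and acts as a gate for proteins that enter or leave, and distal appendages dock the centriole to the membrane before the cilium can grow. Mutations in these genes cause Meckel, Joubert and orofaciodigital syndromes, nephronophthisis and Leber congenital amaurosis. Transcription factors of the RFX family bind X-box motifs in the promoters of many of these genes. SRCAP is the ATPase of a chromatin remodelling complex that places the histone variant H2A.Z, a mark of active and poised promoters.

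The series compared cells with and without SRCAP in 30 libraries of 15 groups, 2 libraries in each. SYAT cells derive from the mESC line CGR8, carry YPet and an auxin-inducible degron (AID) knocked into both alleles of Srcap, and express the receptor OsTir1. Control SYAT cells were kept in auxinole, which blocks basal degradation, and treated SYAT cells received 500 µM indole-3-acetic acid (IAA), which triggers degradation of SRCAP, for 2, 4, 6 or 8 h. SYAT cells sorted in early G1 (EG1) or late G1 (LG1) were kept as controls or treated with IAA for 1 h, and parental CGR8 cells, which have no degron, were left untreated or received IAA for 4 h. Further SYAT lines expressed wild-type (wtSRCAP) or catalytically dead SRCAP (cdSRCAP) from a doxycycline-inducible construct for 24 h, with or without IAA for 4 h. All cells had been in serum and LIF medium for 3 days. The study's methods call the 2 libraries of a group biological duplicates, from cultures that were grown and treated separately.

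Exon counts summed to 12236493 to 60214521 per library, and the 34 genes held between 6 and 3826 exon counts each in a library. All 10 ES cell markers examined were above 1 CPM (counts scaled to library size) in every library and summed to 1918 to 5305 CPM per library. The summed markers of other cells were far lower, at 5.18 to 47.9 CPM for 8 fibroblast genes, 45.5 to 139 for 6 primitive endoderm genes, 50.1 to 182 for 6 trophoblast genes and 102 to 466 for 6 neural genes. Srcap mRNA cannot check the degradation, which acts on the protein, and stood at 815 and 936 normalized exon counts in SYAT control and at 957 and 1231 after 6 h of IAA. In bulk RNA, fewer cells of a kind and less RNA per cell cannot be told apart.

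In control SYAT cells the 34 genes were expressed at low to moderate levels that spanned a wide range. B9d1, a B9-domain protein of the MKS module, was highest per kilobase of exon, at 13.0 and 14.2 CPM per kilobase in the 2 libraries. Rab23, a small GTPase that restrains Hedgehog signalling, followed at 7.75 and 7.93, and Tmem107, a transmembrane protein of the MKS module, came next. The lowest was Anks6, an ankyrin protein of the inversin compartment, at a mean of 0.26 CPM per kilobase. The median over the 34 genes was 2.29 CPM per kilobase, and most neighbours in this order overlapped, since only B9d1, Rab23 and a few others stood clear of the next gene. The same median was 1.95, 1.68, 1.55 and 1.56 after 2, 4, 6 and 8 h of IAA.

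Promoter sequences are shown because RFX sites are known in the promoters of many of these genes. A RefSeq window of 300 bases, 250 before and 50 after the start, was found for 31 of the 34 genes on GRCm38.p6, and 18 letter strings were searched on both strands. A form of the X-box, GTNNCC followed after 2 bases by its reverse complement GGNNAC, was in 7 of the 31 windows (22.6%) and in 1.99% of the 20507 windows of all genes. Capitals mark it in the 7 sites below, each printed with its flanking bases along the strand of the gene.
Mks1, chr11:87853183-87853212, plus strand: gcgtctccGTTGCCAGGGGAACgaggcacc
Tctn1, chr5:122264411-122264432, minus strand: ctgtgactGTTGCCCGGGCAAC
Tctn2, chr5:124598679-124598708, plus strand: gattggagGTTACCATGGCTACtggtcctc
Tmem231, chr8:111933781-111933810, minus strand: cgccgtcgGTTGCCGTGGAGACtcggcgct
Ahi1, chr10:20952560-20952589, plus strand: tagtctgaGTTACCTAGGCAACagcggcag
Cep83, chr10:94688768-94688797, plus strand: ccctccgaGTTTCCCGGGCTACctcaacct
Rab23, chr1:33719776-33719805, plus strand: tcaccttgGTCTCCTTGGGTACcaaggcct

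The shorter string GTTGCC, which can lie within such a site, was in 11 of the 31 windows (35.5%) against 13% of all windows. CCAAT was in 16 of 31 (51.6%) against 38.2%, and CGGAAG, a core of ETS sites, in 14 of 31 (45.2%) against 20% of all windows and 29.5% of the windows of genes tested in the SYAT table. TATAAA was in 1 of 31 (3.2%) against 13.2% of all windows and 7.19% of the windows of genes tested in the SYAT table. The median GC content was 58.4% in the 31 windows and 54% in all windows. A match is a description of the letters, and binding was not measured here. The other one of the 4 genes with the lowest p-values after 6 h of IAA was Rpgrip1l. Its 250 bases before the start held none of the strings marked below and are not printed, so the printed windows do not stand for all 4. The 250 bases before the start of Tctn3, Lca5 and Arl13b, 3 of these 4 genes, are printed next. Capitals mark GTTGCC, the CCAAT box and the ETS core named above, or their reverse complements.
Tctn3, chr19:40612232-40612481, minus strand: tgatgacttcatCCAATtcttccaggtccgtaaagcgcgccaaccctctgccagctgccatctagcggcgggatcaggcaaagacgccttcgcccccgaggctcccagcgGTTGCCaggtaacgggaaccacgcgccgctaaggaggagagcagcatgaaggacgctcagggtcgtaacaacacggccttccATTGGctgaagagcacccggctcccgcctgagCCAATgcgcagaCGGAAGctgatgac
Lca5, chr9:83441128-83441377, minus strand: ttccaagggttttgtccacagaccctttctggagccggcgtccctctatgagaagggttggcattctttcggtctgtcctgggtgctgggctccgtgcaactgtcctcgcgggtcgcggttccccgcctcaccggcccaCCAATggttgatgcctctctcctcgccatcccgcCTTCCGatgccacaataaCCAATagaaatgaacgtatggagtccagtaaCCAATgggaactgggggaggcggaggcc
Arl13b, chr16:62847041-62847290, minus strand: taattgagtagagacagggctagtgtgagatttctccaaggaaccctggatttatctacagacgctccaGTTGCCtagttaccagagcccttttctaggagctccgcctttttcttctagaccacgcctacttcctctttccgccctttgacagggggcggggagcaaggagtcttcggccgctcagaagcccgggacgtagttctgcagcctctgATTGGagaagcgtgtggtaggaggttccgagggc

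The first comparison asked how the 34 genes behaved over 8 h after IAA addition in SYAT cells. Most of them were lower than in control at every time, with fitted log2 fold changes below 0 for 28 of 34 at 2 h, 31 at 4 h, 26 at 6 h and 28 at 8 h, where 49.4%, 47.6%, 49.1% and 46.8% of all 19205 genes tested were below 0. The median log2 fold change of the 34 genes was -0.21, -0.38, -0.49 and -0.62 at the 4 times, against 0.00, 0.02, 0.01 and 0.03 over all genes tested. The 4 comparisons share the 2 control libraries, so they are not independent of each other.

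No gene of the list passed an adjusted p of 0.05 with a log2 fold change past 0.5 in the edgeR quasi-likelihood test at any time, a threshold that 7 of all genes passed downwards (0.0364%) and 6 upwards (0.0312%) at 6 h, that 1 passed upwards at 8 h (0.00521%), and that otherwise none passed (0.0%). At an unadjusted p under 0.05, 2 of the 34 were lower at 2 h (2.55% of all genes tested), 14 at 4 h (6.0%), 12 at 6 h (8.21%) and 17 at 8 h (8.44%). None was higher at that p at any time, where 1.37%, 3.09%, 7.93% and 5.13% of all genes were. The 2 control libraries lay wholly above the 2 treated ones for 15, 22, 22 and 23 of the 34, where 21.0%, 24.1%, 22.2% and 24.0% of all genes did so, and wholly below them for 1, 2, 1 and 2, where 18.6%, 21.7%, 21.5% and 20.9% did. DESeq2, run as an alternative, called 0, 2, 5 and 8 of the 34 lower at 2, 4, 6 and 8 h, where it called 0.0364%, 0.698%, 2.03% and 1.7% of all genes lower, and none of the 34 higher. Without the filter on low counts, edgeR called 0, 1, 5 and 7 lower, against 0.0139%, 0.131%, 1.1% and 0.722% of all 35880 genes tested. With 1 library of the 6 h group (replicate 1) left out, the edgeR test called 7 of the 34 lower at 6 h and none higher, where it called 7.52% of all genes lower and 7.91% higher, and the median log2 fold change was -0.27.

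**Figure D1:**
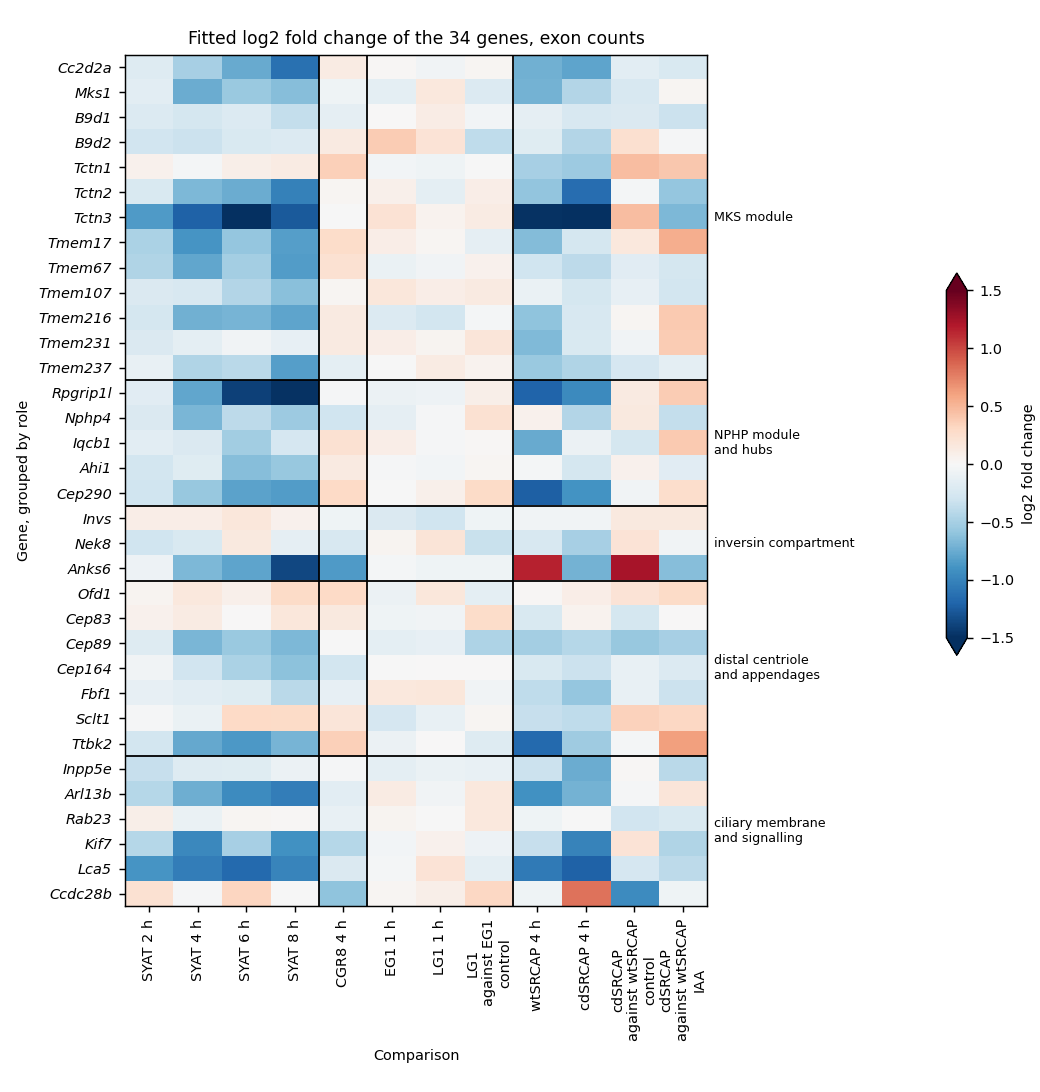
Fitted log2 fold changes of exon counts (colour, scale limited to 1.5 in either direction) for each of the 34 genes (rows, grouped by role) in 12 comparisons (columns). The SYAT columns are mostly blue, with Tctn3, Rpgrip1l and Lca5 among the lowest, while the CGR8 and EG1 columns have medians of -0.00 and -0.01; the 2 darkest red cells are those of Anks6, which has few counts.

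Of the MKS module, 12 of 13 genes were below 0 at 6 h with a median of -0.51, and 4 had a p under 0.05. The lowest log2 fold change of all 34 was that of Tctn3, one of the tectonic proteins that help to build the transition zone (GRCm38 chr19:40596446-40612233, minus strand, 20 exons). Its normalized exon counts were 190.3 and 157 in control, 96.9 and 96 at 2 h, 78.2 and 72 at 4 h, 56.9 and 59 at 6 h, and 73 and 71.4 at 8 h. Every treated library lay below both controls from 2 h onwards. At 6 h the level was 33.4% of control, a log2 fold change of -1.58 (SE 0.238), with an edgeR p of 5.511e-05 and an adjusted p of 0.0533, just above the threshold. The change was -0.85 (SE 0.228) at 2 h and -1.26 (SE 0.231) at 8 h, with adjusted p-values of 0.897 and 0.0717 from edgeR.

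Tctn2, another tectonic, had normalized counts of 356 and 376 in control, 168 and 269.8 at 6 h and 196 and 167 at 8 h, so the groups did not overlap. Its log2 fold change was -0.74 (SE 0.246) at 6 h and -1.01 (SE 0.247) at 8 h. Tmem216, a tetraspan membrane protein mutated in Joubert and Meckel syndromes, had 178 and 162 in control and 121 and 87.8 at 6 h, a log2 fold change of -0.70 (SE 0.238). Cc2d2a, a C2-domain scaffold of the zone, had counts of 213 and 257 in control, 133 and 146 at 6 h and 78 and 138 at 8 h. Its log2 fold change was -0.76 (SE 0.301) at 6 h and -1.12 (SE 0.302) at 8 h. The third tectonic, Tctn1, had counts of 163 and 185 in control and 180.2 and 189.5 at 6 h, which overlapped, with a log2 fold change of 0.09 (SE 0.216).

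All 5 genes of the NPHP module and hubs were below 0 at every time, and at 6 h their median was -0.64 and 3 had a p under 0.05. Rpgrip1l (chr8:91217030-91313262, minus strand) encodes a scaffold at the base of the zone that many MKS and NPHP proteins need. It had 206 and 292 normalized exon counts in control and 238 and 206 at 2 h, where the groups overlapped. It then had 128 and 161 at 4 h, 117 and 70.3 at 6 h, and 84 and 94 at 8 h, all below both controls. The level at 6 h was 37.7% of control, a log2 fold change of -1.41 (SE 0.293, edgeR adjusted p of 0.074), and -1.48 (SE 0.29) at 8 h. Tctn3 was thus lower from the first time point, whereas Rpgrip1l was lower from the second, and the difference between their courses was not tested. Reads of Rpgrip1l can be shared with Gm45428 and Gm45662, which overlap it on the same strand.

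Cep290, which ties the axoneme to the membrane and whose mutations cause Leber congenital amaurosis and Joubert syndrome, had 487 and 639 normalized counts in control and 280 and 369 at 6 h. Its log2 fold change was -0.80 (SE 0.253) at 6 h and -0.84 (SE 0.252) at 8 h, with edgeR adjusted p-values of 0.18 at both times. Ahi1, a Joubert syndrome protein of the zone, had 232 and 193 in control and 158 and 114 at 6 h, a log2 fold change of -0.64 (SE 0.247). At 4 h its groups overlapped, with 208 and 166. The remaining pair, Nphp4 and Iqcb1, had log2 fold changes of -0.39 and -0.52 at 6 h and a p over 0.05.

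The inversin compartment is a stretch of the cilium just above the zone, and none of its 3 genes had a p under 0.05 at 6 h. Invs and the kinase gene Nek8 had log2 fold changes of 0.17 and 0.14 at 6 h and 0.06 and -0.13 at 8 h. Anks6 had -0.79 and -1.37 at 6 and 8 h, from 30 and 27 normalized counts in control to 11 and 10.9 at 8 h, so that these values rest on few reads.

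Among the 7 genes of the distal centriole and its appendages, 3 had a p under 0.05 at 6 h. Ttbk2, the kinase that starts ciliogenesis at the distal appendages, had 243 and 252 normalized counts in control, 181 and 228 at 2 h, 137 and 155 at 4 h, 141 and 132 at 6 h, and 132 and 173 at 8 h. All 8 treated libraries lay below both controls. The log2 fold change at 6 h was -0.86 (SE 0.222, edgeR adjusted p of 0.116), and Cdan1 overlaps the gene on the same strand. Cep89 and Cep164, both appendage proteins, had -0.56 (SE 0.248) and -0.47 (SE 0.196). Ofd1, Cep83, Fbf1 and Sclt1, which belong to the same structures, had log2 fold changes between -0.18 and 0.30, none with a p under 0.05.

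Among the 6 genes of the ciliary membrane and its signalling, Lca5 and Arl13b had the lowest values. Lca5 (chr9:83390293-83441127, minus strand) encodes lebercilin, an axonemal protein mutated in Leber congenital amaurosis, and its normalized counts were 157 and 169 in control, 88 and 89 at 2 h, 71.6 and 86.5 at 4 h, 81.8 and 62.7 at 6 h, and 78 and 86.5 at 8 h. All treated libraries lay below both controls, and most of the difference was present by 2 h. The level at 6 h was 44.4% of control, a log2 fold change of -1.17 (SE 0.247, edgeR adjusted p of 0.0744). Arl13b (chr16:62793685-62847040, minus strand), a GTPase of the ciliary membrane, had 352 and 338 in control, 258 and 255 at 2 h, 224 and 192 at 4 h, 197 and 161 at 6 h, and 192 and 145 at 8 h. Its log2 fold change was -0.95 (SE 0.208) at 6 h and -1.03 (SE 0.207) at 8 h, with edgeR adjusted p-values of 0.0841 and 0.083.

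Kif7, a kinesin at the cilium tip that regulates Gli factors, had -0.97 (SE 0.257) at 4 h and -0.50 (SE 0.255) at 6 h, where its libraries held 242 and 448 normalized counts against 474 and 503 in control. Inpp5e, a phosphatase of the ciliary membrane, had -0.19, Rab23 had 0.03 and Ccdc28b, a modifier of Bardet-Biedl syndrome, had 0.32 at 6 h, all with a p over 0.05. Rab23 held 1342 and 1312 counts in control and 1317 and 1385 at 6 h. The most abundant of these 6 genes thus had one of the smallest differences.

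**Figure D2:**
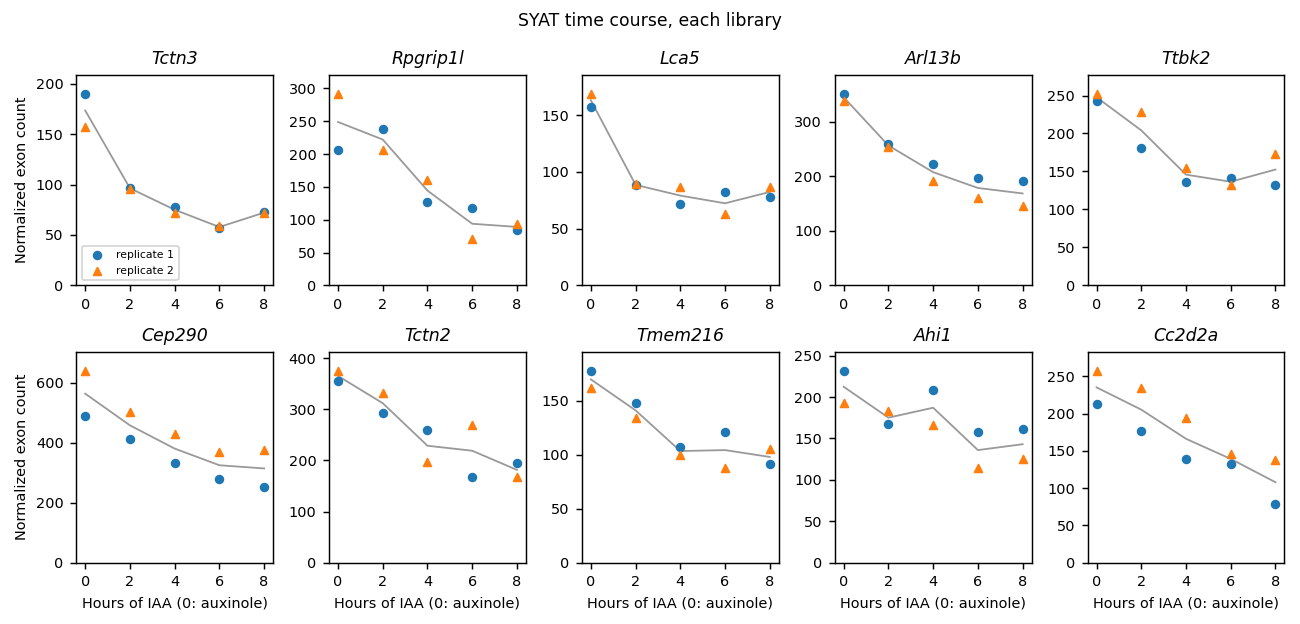
Normalized exon counts (y axis) of the 10 genes with the lowest p at 6 h, in each SYAT library, against hours of IAA (x axis, 0 for control in auxinole). Circles and triangles are replicates 1 and 2 and the line joins their means; Lca5 is near its lowest level by 2 h, Tctn3 is lowest at 6 h, and Cc2d2a continues down to 8 h.

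A list of 49 other ciliopathy genes gave a background from the same class, of which 47 were tested. In SYAT cells 5, 15, 18 and 20 of them were lower at 2, 4, 6 and 8 h with a p under 0.05, and 0, 1, 2 and 1 were higher, with medians of -0.13, -0.35, -0.42 and -0.36. The lowest p at 6 h was that of Spata7, a photoreceptor transition zone protein, with a log2 fold change of -2.01 (SE 0.339, edgeR adjusted p of 0.0613). C2cd3, a centriolar protein of orofaciodigital syndrome, had -0.81 (SE 0.146, edgeR adjusted p of 0.0646). Of 12 tested genes of the ciliary transcription factors, among them the RFX family, 0, 0, 1 and 0 were lower and 2, 1, 0 and 1 higher at 2, 4, 6 and 8 h with a p under 0.05. Their medians were 0.22, 0.19, 0.06 and 0.16, with 2, 2, 6 and 3 of 12 below 0. The lower one was Gmnc, a switch for multiciliated cells, at -1.78 (SE 0.735), and Foxj1, the factor for motile cilia, had 0.47 (SE 0.259, p of 0.103 in edgeR). Gmnc lay at 0.454 to 0.81 CPM in SYAT control, so its value rests on few reads. Of 9 genes that report Hedgehog output, 0, 1, 2 and 2 were higher at the 4 times and none was lower, with medians of 0.04, 0.01, 0.01 and -0.05. At 6 h the higher ones were Hhip at 1.13 (SE 0.394) and Gli1 at 0.55 (SE 0.215). Hhip, at 0.709 to 1.03 CPM in SYAT control, also rests on few reads.

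Markers of other cells were measured in the same libraries. The summed fibroblast markers were 22.8 to 28.4 CPM in SYAT control and 32.5 to 40 at 6 h, with Postn at 0 in all libraries, and the summed ES cell markers were 2295 to 2781 and 2674 to 3914. At 6 h, 4 of the 10 ES cell markers were higher with a p under 0.05 (median 0.32), Tdgf1 at 0.40 and Utf1 at 0.43 having the lowest p. At the same p, 1 of 5 tested fibroblast markers (Thy1 at 0.40; Col1a1 had 0.69), 2 of 5 trophoblast markers (Tfap2c at 0.51 and Eomes at 0.71), none of 5 primitive endoderm markers (Sox17 had 1.08 and Col4a1 0.52) and none of 5 neural markers (Pax6 had 0.67 and Map2 -0.48) were higher, and none of these lists had a lower one. The part of these cells in the results was not tested.

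Intron columns count unspliced RNA, but those of the SYAT and EG1 libraries also held exonic reads. Among genes made of 1 exon, which have no intron, 34.1% to 47.2% of those with 20 or more exon counts had intron counts there, against at most 0.049% in the other libraries. Of the 34 genes, 23 passed the filter on low counts in SYAT cells and 11, Tctn3 and Lca5 among them, were listed at 0 in all 10 libraries. Of the 23, 0, 7, 7 and 9 were lower at 2, 4, 6 and 8 h with a p under 0.05 (3.29%, 5.87%, 7.98% and 7.85% of all genes tested), and none was higher (1.84%, 3.63%, 6.53% and 5.67%). The medians were -0.22, -0.60, -0.47 and -0.70. The lowest adjusted p in edgeR was 0.174 at 6 h, so none passed, while 1 of all genes passed in each direction at 6 h (0.00679%) and 1 downwards at 8 h (0.00679%). With the exon counts subtracted from the intron counts, 19 of the 34 were tested. Lower with a p under 0.05 were 5, 6, 3 and 3 at 2, 4, 6 and 8 h, and none was higher. The medians were -0.69, -0.66, -0.41 and -0.50. None of all 10138 genes tested was called in this setting, and the share of all genes at that p is not given. Arl13b held 144 and 214 intron counts in control, 48 and 76 at 2 h, 0 in all libraries of 4 and 6 h, and 0 and 103 at 8 h. No fold is given for it, since 11 genes of the list with exon counts were also listed at 0 there. Arl13b is still among the 7 lower genes at 4 h and the 7 at 6 h.

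The second comparison asked whether IAA alone moved these genes in CGR8 cells, which have no degron. Of the 34, 18 were below 0 (50% of all genes), the median log2 fold change was -0.00 and none was called by edgeR or DESeq2. Lower with a p under 0.05 were 2 genes (4.12% of all genes), and none was higher (5.04%). Ccdc28b had 254 and 289 normalized counts untreated and 189 and 168 with IAA, a log2 fold change of -0.61 (SE 0.253, edgeR adjusted p of 0.54). Kif7 had 1109 and 1038 untreated and 902 and 698 with IAA, a log2 fold change of -0.42 (SE 0.183, edgeR adjusted p of 0.544). Both pairs of libraries were apart.

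Tctn3 stood at 444 and 662 untreated and 518 and 585 with IAA, an overlap, with a log2 fold change of -0.01 (SE 0.232), and Rpgrip1l had the same value of -0.01 (SE 0.188). Lca5 and Arl13b had -0.22 (SE 0.234) and -0.16 (SE 0.164). The 2 libraries of each group did not overlap downwards for 10 of the 34 (20.6% of all genes) and upwards for 7 (21.6%). Of the genes with a p under 0.05 at 4 h in SYAT cells, Kif7 was the only one that also had a p under 0.05, in the same direction, in CGR8 cells. In the CGR8 intron column, 30 of the 34 were tested, none had a p under 0.05 in either direction (2.68% lower and 2.57% higher of all genes), and the median was 0.06.

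The third comparison asked whether 1 h without SRCAP, in sorted EG1 or LG1 cells, was enough to move these genes. No gene of the list had a p under 0.05 in the exon column in either phase, where 1.03% of all genes in EG1 and 0.733% in LG1 were lower and 0.19% and 0.285% higher at that p. DESeq2 called none either. The medians were -0.01 in EG1 and -0.00 in LG1, with 20 and 17 of 34 below 0, against 49.9% and 47.5% of all genes. The lowest p in EG1 was that of Sclt1, with 161 and 148 normalized counts in control and 124 and 136 with IAA (-0.25, SE 0.184), then Invs with 241 and 219 against 202 and 195 (-0.22, SE 0.162). In LG1 it was Invs, with 234 and 208 in control and 188 and 172 with IAA (-0.30, SE 0.163), then Tmem216 with 155 and 148 against 140.1 and 111 (-0.27, SE 0.197). These groups did not overlap.

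Tctn3 had 192 and 171 in EG1 control and 251 and 170.2 with IAA, and 223 and 173 in LG1 control and 208 and 200.4 with IAA, so its groups overlapped in both phases. Between the control phases, LG1 against EG1, no gene of the list had a p under 0.05 (0.733% of all genes lower and 0.709% higher), and the lowest were Nek8, with 316 and 327 in EG1 and 260 and 249 in LG1 (-0.34, SE 0.152), and Cep290, with 348 and 374 in EG1 and 441 and 437 in LG1 (0.28, SE 0.13). The response to IAA differed between the phases for none of the 34 at a p under 0.05 (0.247% of all genes lower and 0.452% higher). In the intron column, EG1 had 1 lower gene with a p under 0.05 (1.89% of all genes), Tmem216 with 46 and 25 counts in control and 9 and 0 with IAA, and 2 higher ones (0.39%), Tctn2 with 85 and 73 against 157 and 103 and Inpp5e with 0 and 0 against 30 and 0. For Inpp5e 1 library set the difference. In LG1 introns 1 gene was lower (2.7%), Tmem237 with 110 and 89 against 67 and 51. LG1 and EG1 were not compared in introns, because their intron columns were not counted alike.

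The fourth comparison asked whether SRCAP expressed from a construct changed the response to 4 h of IAA. In wtSRCAP cells 31 of 34 genes were below 0 with IAA (52.3% of all genes), with a median of -0.36 against -0.02 over all genes. With cdSRCAP 31 of 34 were below 0 as well (47.7% of all genes), with a median of -0.44 against 0.02. The p was under 0.05 for 10 genes with wtSRCAP (4.48% of all genes) and for 7 with cdSRCAP (3.99%), all lower, where 2.93% and 1.65% of all genes were higher, and the groups did not overlap downwards for 17 (19.5%) and 21 (19.0%). No gene was called by edgeR in either line, and DESeq2 called none with wtSRCAP (0.0366% of all genes lower) and Tctn3 with cdSRCAP (0.0994%). The summed fibroblast markers were 5.18 to 5.45 CPM in wtSRCAP control and 12.1 to 12.8 with IAA, and their part in the result was not tested.

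Tctn3 had the lowest p in both lines. With wtSRCAP its normalized counts were 152 and 173 without IAA and 44.8 and 69.8 with IAA, a log2 fold change of -1.48 (SE 0.339, edgeR adjusted p of 0.597). With cdSRCAP they were 191 and 257 without and 37.5 and 35.4 with IAA, which is 16.3% of control and a log2 fold change of -2.62 (SE 0.351, p of 3.027e-05, edgeR adjusted p of 0.289). The response was 1.14 lower on the log2 scale with cdSRCAP than with wtSRCAP (interaction -1.14, SE 0.476, p of 0.0391, edgeR adjusted p of 1.0), the only gene of the list with a p under 0.05 for this difference (0.372% of all genes), so that it failed the correction. With IAA present, Tctn3 did not differ between cdSRCAP and wtSRCAP at that p (-0.68, SE 0.349).

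Ttbk2 was next with wtSRCAP, at 224 and 230.4 without and 87.9 and 112 with IAA (-1.17, SE 0.279), while with cdSRCAP it had 213 and 231 against 170.2 and 138 (-0.53, SE 0.272). Tctn2 was next with cdSRCAP, at 335 and 282 without and 136 and 142 with IAA (-1.15, SE 0.361), and with wtSRCAP it had 326 and 301 against 292 and 130.2 (-0.59, SE 0.359). For neither gene did the responses differ between the lines at a p under 0.05. Cep290 went from 477 and 425 to 176 and 209 with wtSRCAP and from 538 and 330.2 to 283 and 181 with cdSRCAP (-1.22 and -0.90). Arl13b went from 283 and 242 to 151 and 131 with wtSRCAP and from 245 and 273 to 157 and 161 with cdSRCAP (-0.90 and -0.71). Anks6 had the highest log2 fold change with wtSRCAP, at 1.16, but its libraries held 11.9 and 10.0 normalized counts without and 48.4 and 4.31 with IAA, so that 1 library set it. All 5 of the genes before it were apart from their controls in both lines, each treated library lying below both controls.

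**Figure D3:**
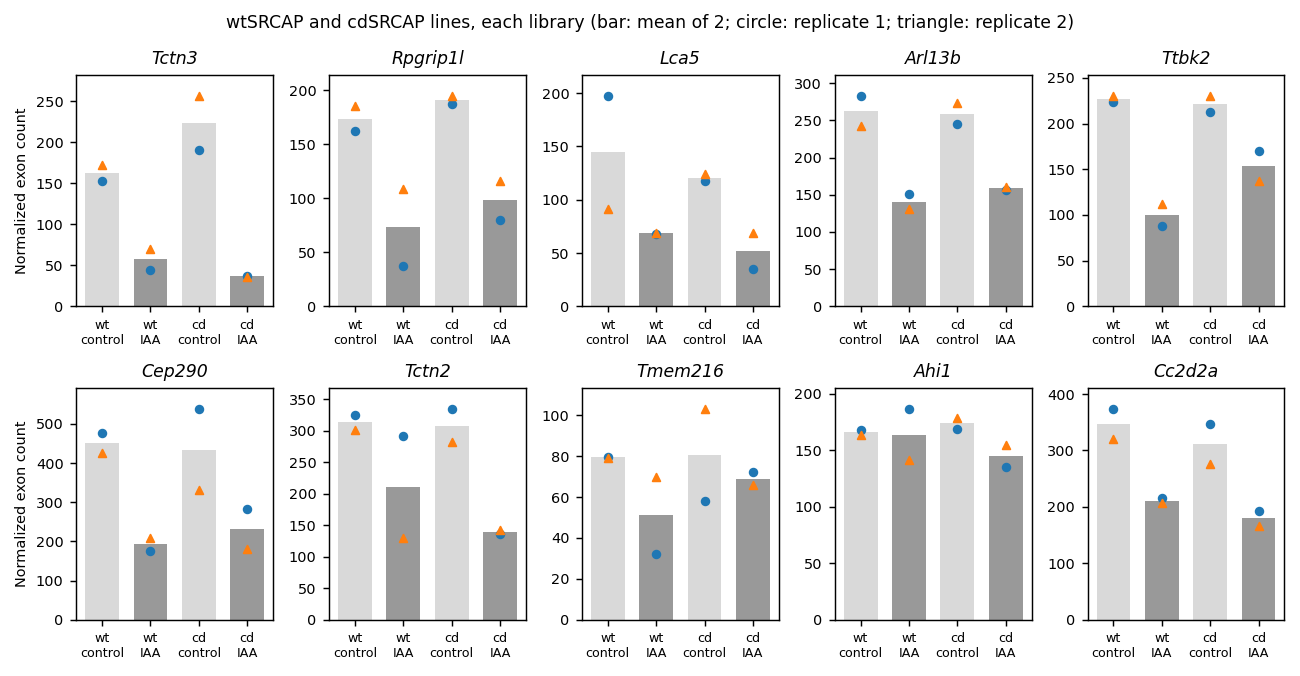
Normalized exon counts (y axis) of the same 10 genes in cells expressing wtSRCAP (wt) or cdSRCAP (cd), without IAA (control, light bars) or with IAA for 4 h (dark bars); bars are means of 2 libraries, circles and triangles are replicates 1 and 2. Tctn3, Cep290, Arl13b and Cc2d2a are lower with IAA in both lines, and Ahi1 overlaps with wtSRCAP.

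The lines were also compared with each other. The study's methods name 1 selected clone for each line. Differences between the lines, in level or in response to IAA, thus cannot be told apart from differences between clones. Without IAA, cdSRCAP against wtSRCAP gave a median of -0.03 and 1 gene with a p under 0.05 (1.32% of all genes), Cep89, with 593 and 517 normalized counts in wtSRCAP and 422 and 324 in cdSRCAP (-0.57). Ccdc28b had 34.5 and 56.8 against 24.9 and 22.8 (-0.95). With IAA the median was -0.11, no gene had a p under 0.05 (2.19% of all genes lower and 2.84% higher), and the lowest p-values were those of Ttbk2 (0.61, SE 0.278) and Cep89 (-0.50, SE 0.248). Without 1 library, replicate 1 of wtSRCAP with IAA, which was the shallowest library, that median was 0.06, and without replicate 2 it was -0.27.

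The intron columns of the wtSRCAP and cdSRCAP libraries, which held almost no exonic reads, tested 30 of the 34 genes. Of these, 9 were lower with wtSRCAP at a p under 0.05 (6.61% of all genes) and 10 with cdSRCAP (7.49%), none was higher (5.76% and 3.78%), and the medians were -0.52 and -0.53. The median with wtSRCAP was -0.32 without replicate 1 of its control. Rpgrip1l held 90 and 44 intron counts in wtSRCAP control against 5 and 0 with IAA, and 93 and 55 in cdSRCAP control against 0 and 1 (edgeR adjusted p-values of 0.17 and 0.0714). Tctn3 held 25 and 20 against 0 and 9, and 40 and 34 against 8 and 4. Tmem67, a receptor-like protein of Meckel syndrome, held 36 and 0 against 0 and 0, and 32 and 20 against 0 and 0. Nphp4 had the lowest adjusted p, with 206 and 238 counts in cdSRCAP control and 89 and 110 with IAA (-1.22, SE 0.218, edgeR adjusted p of 0.0646).

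**Figure D4:**
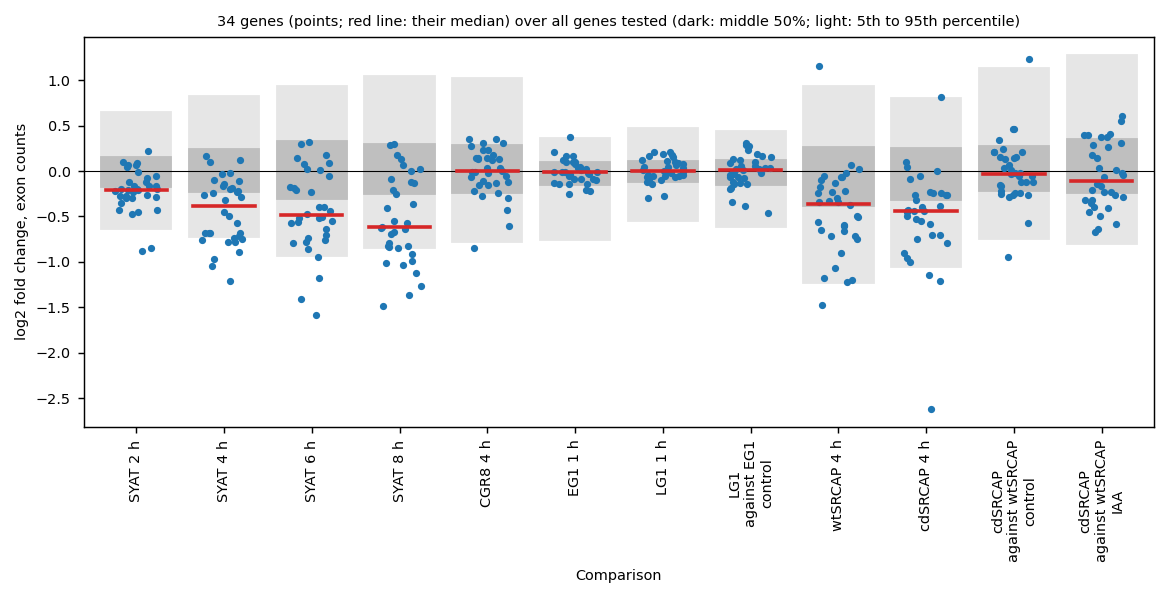
Fitted log2 fold changes of exon counts (y axis) of the 34 genes (points; red line, their median) over those of all genes tested (dark band, middle 50%; light band, 5th to 95th percentile) in each of 12 comparisons (x axis). The medians lie between -0.62 and -0.21 in the SYAT comparisons and at -0.36 and -0.44 with wtSRCAP and cdSRCAP, and at -0.00 in CGR8 cells.

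Set side by side at 4 h of IAA, the SYAT, wtSRCAP and cdSRCAP comparisons share no library. Below 0 in both SYAT and wtSRCAP cells were 29 of 34 genes (85.3%), against 33.3% of all genes tested in both, and in both SYAT and cdSRCAP cells 30 of 34 (88.2%) against 32.9%. Lower with a p under 0.05 in both SYAT and wtSRCAP cells were 7 genes (20.6%, against 2.17% of all genes), Tctn3, Rpgrip1l, Lca5, Arl13b, Ttbk2, Cep290 and Mks1. In both SYAT and cdSRCAP cells there were 6 (17.6%, against 2.33%), Tctn3, Lca5, Arl13b, Cep290, Tctn2 and Kif7. The wtSRCAP and cdSRCAP lines derive from SYAT cells, so the comparisons share their genetic background. Against CGR8 cells, 17 of 34 were below 0 in both (50%, against 27.0% of all genes).

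Some of these genes share their promoter region with a neighbour on the other strand. A start of a protein-coding gene on the other strand, to either side, lay within 1000 bases for 9 of the 34 genes (26.5%). The same held for 15% of the 14239 protein-coding genes tested. Of the 8 partners tested in SYAT cells, 3 were lower and 1 higher at 6 h with a p under 0.05. Fto, 263 bases from Rpgrip1l, had -0.49 (p of 0.00598 in edgeR) where Rpgrip1l had -1.41, and Tmtc3, next to Cep290, had -0.39 where Cep290 had -0.80. D3Ertd751e, 97 bases from Sclt1, had -0.996 where Sclt1 had 0.30, and Tlcd1, next to Nek8, had 0.42 where Nek8 had 0.14. A lower member and a lower partner thus went together at some of these promoters and not at others.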

How the data were processed

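The authors aligned nuclear RNA-seq reads to mm10 with STAR, counted them with featureCounts over GENCODE exons and introns (gene bodies minus exons), and deposited raw counts per gene in 4 tables, with an exon and an intron column per library. SAMtools 1.10 and Picard are named in the submitters' processing notes. Strand settings are not given in the sources used here, so reads of 18 members with an antisense gene and 6 with a same-strand overlap may be shared. The deposited results of the authors' own comparisons (DESeq2 fold changes and p-values) were not used.

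All groups of a table were fitted together with edgeR 4.0.16 (R 4.3.3; quasi-likelihood, TMM, filterByExpr with a minimum count of 10 and total of 15), without a replicate block, with Benjamini-Hochberg adjustment over all genes tested; called means an adjusted p under 0.05 and a log2 fold change past 0.5. Normalized counts are counts divided by the TMM library size relative to the table's geometric mean. SE is the standard error of the log2 fold change. Alternatives were DESeq2 1.42.0 with normal shrinkage and with or without a replicate term, DESeq2 size factors, no filter, a replicate block, intron minus exon counts in SYAT and EG1 libraries, and leaving out each library; scripts were tested on simulated counts. Replicate numbers were not taken to pair libraries. Fold changes were compared within a table only. Promoter windows are RefSeq's, searched with Python.

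Members and lists were chosen with earlier results of these data known. Values in every library were given for the 10 members of lowest p at 6 h in SYAT cells, the 2 of lowest p in each other comparison and the highest and lowest by level; members named beyond these, to complete a role group or a count, were chosen after their values were seen.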

Additional observations from a re-analysis of the deposited data

Results flagged for a closer look

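For 5 of the 34 genes every library moved one way upon 4 h of IAA in SYAT cells and the other way in CGR8 cells, which have no degron. The log2 fold changes in SYAT and CGR8 cells were -0.89 and 0.28 for Tmem17, -0.78 and 0.23 for Tmem67, -0.71 and 0.14 for Tmem216, -0.57 and 0.3 for Cep290, and -0.76 and 0.35 for Ttbk2. The cells were counted in separate tables, and the difference was not tested. Among all 18368 genes tested in both, 828 (4.51%) had this pattern. No gene of the list had the opposite pattern, and 7 were lower in both kinds of cells without overlap. The shares of all genes with the opposite pattern or lower in both are not given, so these counts have no background.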

How the results depend on the processing

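Over the genes named by rule and all alternatives, 238 values stayed on their side of the threshold, 50 passed it under an alternative and none changed sign. For exon counts, members called lower, against 0 with edgeR, were 1, 5 and 7 at 4, 6 and 8 h in SYAT cells and 1 with cdSRCAP without the filter on low counts, and 2, 5 and 8 in SYAT cells and 1 (Tctn3) with cdSRCAP in DESeq2. With a replicate block they were 1, 6 and 9 in SYAT cells, 5 with wtSRCAP and 4 with cdSRCAP, and with the block in DESeq2 4, 6, 11, 5 and 5. Among all genes, the block called 49, 498 and 460 of 19205 lower in SYAT cells. It called 280 and 245 of 19111 lower with wtSRCAP and cdSRCAP. With the block in DESeq2 these all-gene counts were 201, 563, 459, 290 and 337. Without the filter, 5 of 33130 genes were lower with cdSRCAP. No label says that a replicate number marks a shared batch or day, and with 2 numbers they were not taken to pair libraries; deviations of same-numbered libraries correlated at -0.04 to 0.59 over genes in SYAT exons and at 0.26 to 0.38 in wtSRCAP and cdSRCAP exons, and the cause of the added calls was not tested. In introns the counts called lower were 3 with wtSRCAP and 5 with cdSRCAP without the filter, 1 and 4 with the block, 1 and 3 with the block in DESeq2, and 1 with cdSRCAP in DESeq2; in SYAT introns DESeq2 gave 2 at 6 h and 2 at 8 h (2.08% and 1.92% of all genes), and with the block 1, 4 and 4 at 4, 6 and 8 h (1.26%, 2.75% and 2.43%). The wtSRCAP and cdSRCAP intron counts stand against 1.4% and 1.11% of all genes without the filter, 1.36% and 1.74% with the block, 2.1% and 1.94% with the block in DESeq2, and 1.01% with cdSRCAP in DESeq2. In introns called higher, 1 gene came up in EG1 with the block in DESeq2 (0.0459%) and 1 for cdSRCAP against wtSRCAP with IAA without the filter (1.57%), and 1 was called lower in LG1 with the block in DESeq2 (1.22%).

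Shrunken DESeq2 medians, without and with the block, were nearer to 0, at -0.15 and -0.15, -0.23 and -0.22, -0.32 and -0.31, and -0.41 and -0.41 at 2, 4, 6 and 8 h in SYAT exons and -0.30 and -0.30 with cdSRCAP. In introns they were -0.28 and -0.28 at 4 h, -0.24 and -0.24 at 6 h, -0.32 and -0.35 at 8 h, -0.36 and -0.36 with wtSRCAP, -0.30 and -0.29 with cdSRCAP, and -0.11 and -0.14 for cdSRCAP against wtSRCAP with IAA, where the block in edgeR gave -0.28 and the main value was -0.25. Subtracting exon counts from SYAT introns gave -0.69 at 2 h. Leaving out 1 library at a time, medians ranged from -0.27 to -0.16, -0.49 to -0.36, -0.52 to -0.27 and -0.70 to -0.51 in SYAT exons, from -0.54 to -0.31 with cdSRCAP, and in introns from -0.10 to 0.0919 in CGR8, -0.58 to -0.32 with wtSRCAP, -0.65 to -0.26 at 6 h and -0.18 to -0.12 for cdSRCAP against wtSRCAP with IAA. Called counts then ranged from 0 to 7 in SYAT exons at 6 h, 0 to 2 in its introns, both highest without replicate 1 of the 6 h group (7.52% and 4.46% of all genes lower), and 0 to 1 upwards in CGR8 introns (without replicate 2 of the control, 4.53%) and EG1 introns (without IAA replicate 2, 0.018%).

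Over all genes, calls lower and higher at 6 h in SYAT exons were 7 and 6 in edgeR, 395 and 490 without the filter, 498 and 325 with the block, 389 and 238 in DESeq2 and 563 and 494 in DESeq2 with the block. In the same order of settings they were 0 and 0, then 47 and 41, 49 and 27, 134 and 46, and 201 and 120 at 4 h, 0 and 1, then 259 and 189, 460 and 174, 326 and 105, and 459 and 223 at 8 h, 1 and 0, then 7 and 13, 280 and 332, 7 and 14, and 290 and 449 with wtSRCAP, and 0 and 0, then 5 and 5, 245 and 100, 19 and 3, and 337 and 155 with cdSRCAP. In CGR8 exons they were 2 and 0, then 110 and 276, 180 and 320, 44 and 90, and 86 and 213, with no gene of the list among them. DESeq2 size factors in the edgeR fit called no gene of the list in any comparison. The number of calls thus differed with the setting on the same libraries, and the cause was not tested. Median biological coefficients of variation in exons were 0.19 to 0.29, and members with low counts, such as Anks6, B9d2 and Tmem17, have wide errors.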
